A study of Caenorhabditis elegans with 2 samples.

Results

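The genes described here are the 163 snoRNA genes of Caenorhabditis elegans that have no protein-coding host gene on their own strand, out of 346 annotated snoRNA genes and 46926 annotated genes. A gene was included when the annotation typed it as snoRNA and its span did not lie wholly inside a protein-coding gene on the same strand. The other 183 snoRNA genes lie in such a host. The 163 are called unhosted below, although 7 of them lie inside a noncoding gene on the same strand and 1 partly overlaps a coding gene on the same strand. Occupancy by SNPC-1.1 was measured by ChIP-seq in 1 group of 2 biological replicates, whole young adult hermaphrodites of strain YL482, using anti-GFP for the precipitation. The strain stably carries a transgene in which a C-terminal GFP-FLAG tag is fused to SNPC-1.1 (clone name C06A8.2), so the values describe the tagged protein averaged over all tissues. The labels name a possible control experiment, which was not analysed here, and there was no second group. For each gene the region of highest signal with its summit within 500 bp of the annotated 5′ end was taken from each deposited peak list.

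SNPC-1.1 belongs to SNAPc, the complex that activates genes for small nuclear RNAs. SNAPc binds the proximal sequence element, a short stretch upstream of snRNA genes, and helps to recruit RNA polymerase II or RNA polymerase III. Small nucleolar RNAs guide the chemical modification of ribosomal and spliceosomal RNAs: those with boxes C and D guide methylation of the ribose, and those with boxes H and ACA guide pseudouridylation. In vertebrates most are cut out of introns, whereas a snoRNA that is not part of any longer transcript needs a promoter of its own. Boxes A and B are the promoter elements inside tRNA genes, where TFIIIC binds for RNA polymerase III. In budding yeast the snoRNA gene SNR52 carries both boxes ahead of the mature RNA.

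The deposited values were lists of peaks or regions. The reproducible list, which passed the authors' irreproducible discovery rate (IDR) threshold, held 1500 peaks on ce11. The pooled list held 30000 regions, replicate 1 held 29523 and replicate 2 held 26195. The authors named the pooled list as peaks and background given to the IDR step. A region found only there therefore need not mark binding. Each region has a signal value, the authors' own score on a scale that is not stated, so signals were compared within a list and not between lists. The lists give no read totals, and the depth of each sample is therefore unknown.

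Of the 163 genes, 60 had a reproducible peak. Of these, 50 carried one of a pair of promoter-like arrangements in the DNA just upstream, with at most 1 mismatch. Of the 103 genes without a peak, 2 carried the first arrangement and 9 the second. Over all genes, 0.394% had the first and 3.27% the second. The second counts a match to either of its 2 boxes, and both matched at 8 of its 25 genes with a peak. The first was found by starting from CGGAACCC, the 8-base word that occurred in the most upstream windows of U snRNA genes, the annotated snRNA genes other than spliced leader genes (26 of 99 windows of 100 bp). It was extended by eye, after the sequences had been read, to the letters CGNAACNC followed, after any 6 bases, by TGTC. This composite element was searched on the gene's strand in the 100 bp upstream with at most 1 mismatch to its fixed letters. The 100 bp before 6 genes with a composite element are printed because their peaks were among the highest with this element. The sequences are from the RefSeq assembly (ce11), read 5′ to 3′ on the strand of the gene. Capitals mark the letters of both parts, and each line ends 1 base before the gene. The windows were chrII:15025894-15025993 on the minus strand for Y53F4B.47, chrIV:867134-867233 on the minus strand for Y55F3BR.9, chrIII:9717280-9717379 on the plus strand for C07A9.14. The others were chrV:8247962-8248061 on the minus strand for C16D9.10, chrV:14092472-14092571 on the plus strand for smy-3, chrIV:8428740-8428839 on the minus strand for T26A8.6.
Y53F4B.47: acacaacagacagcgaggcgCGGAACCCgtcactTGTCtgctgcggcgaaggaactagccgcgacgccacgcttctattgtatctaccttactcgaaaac
Y55F3BR.9: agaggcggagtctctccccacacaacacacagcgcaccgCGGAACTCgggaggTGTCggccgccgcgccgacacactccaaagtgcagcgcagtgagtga
C07A9.14: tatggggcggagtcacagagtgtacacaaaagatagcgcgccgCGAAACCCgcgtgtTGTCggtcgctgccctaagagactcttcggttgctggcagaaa
C16D9.10: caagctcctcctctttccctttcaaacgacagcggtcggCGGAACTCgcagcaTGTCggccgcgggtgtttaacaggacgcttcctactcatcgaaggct
smy-3: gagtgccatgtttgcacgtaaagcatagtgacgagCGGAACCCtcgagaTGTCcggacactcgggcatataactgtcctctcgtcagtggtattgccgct
T26A8.6: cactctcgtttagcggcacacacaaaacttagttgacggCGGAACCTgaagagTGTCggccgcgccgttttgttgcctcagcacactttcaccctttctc

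The second arrangement resembled the promoter of a tRNA gene placed ahead of the snoRNA. Box A was taken as TGGC followed, after any 2 bases, by AGTGG, and box B as GGTTCNA followed, after any 2 bases, by CC. Both were chosen after reading the sequences of these genes and were searched on the gene's strand from 100 bp upstream to 20 bp inside the gene, with at most 1 mismatch each. The next 6 lines show genes whose peaks were among the highest of this kind, with the matched boxes in capitals and the last 20 bases of each line inside the gene. The windows were chrV:11314158-11314277 on the plus strand for T03F7.8, chrV:15873907-15874026 on the minus strand for T06C12.16, chrV:15191074-15191193 on the minus strand for Y75B12B.12. The others were chrII:15166009-15166128 on the minus strand for Y53F4B.48, chrII:11960798-11960917 on the plus strand for W03C9.9, chrIV:7574022-7574141 on the plus strand for F32E10.10.
T03F7.8: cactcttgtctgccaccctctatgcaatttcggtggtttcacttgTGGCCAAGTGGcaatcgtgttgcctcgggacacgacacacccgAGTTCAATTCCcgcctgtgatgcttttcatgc
T06C12.16: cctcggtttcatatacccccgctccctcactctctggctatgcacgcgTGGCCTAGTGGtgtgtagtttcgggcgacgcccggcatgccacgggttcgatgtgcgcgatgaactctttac
Y75B12B.12: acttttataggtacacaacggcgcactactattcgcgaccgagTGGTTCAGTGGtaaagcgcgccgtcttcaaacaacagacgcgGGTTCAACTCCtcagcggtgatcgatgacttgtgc
Y53F4B.48: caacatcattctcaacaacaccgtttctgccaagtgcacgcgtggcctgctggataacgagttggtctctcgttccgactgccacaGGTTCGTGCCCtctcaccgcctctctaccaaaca
W03C9.9: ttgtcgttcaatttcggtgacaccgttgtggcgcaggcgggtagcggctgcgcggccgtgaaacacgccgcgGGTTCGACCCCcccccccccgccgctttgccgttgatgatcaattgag
F32E10.10: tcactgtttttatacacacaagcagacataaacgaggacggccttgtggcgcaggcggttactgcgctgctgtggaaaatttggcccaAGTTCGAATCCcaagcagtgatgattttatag

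The gene bodies below show what lies behind a pair of the highest peaks, with the letters of box C (TGATGA) and box D (CTGA) in capitals. Both genes, Y55F3BR.9 (chrIV:867056-867133 on the minus strand) and C16D9.10 (chrV:8247888-8247961 on the minus strand), had these letters near their ends, as box C/D snoRNAs do. The gene smy-3 (chrV:14092572-14092651 on the plus strand) is typed as snoRNA in the annotation, but its symbol is that of the SmY RNAs, nematode RNAs that bind Sm proteins and are linked to trans-splicing. It is shown without capitals, for comparison, and was kept, since the rule goes by the annotated type.
Y55F3BR.9: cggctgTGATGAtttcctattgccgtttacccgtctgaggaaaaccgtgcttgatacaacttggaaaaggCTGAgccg
C16D9.10: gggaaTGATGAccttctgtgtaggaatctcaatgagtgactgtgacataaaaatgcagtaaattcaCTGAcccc
smy-3: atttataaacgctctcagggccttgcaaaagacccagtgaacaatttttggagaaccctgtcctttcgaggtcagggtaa

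The share of unhosted snoRNA genes with a reproducible peak was above that of all annotated genes. The 60 of 163 genes made up 36.8% (exact 95% binomial interval 29.4 to 44.7%), against 4.03% of all annotated genes and 4.25% of protein-coding genes. Among snoRNA genes in a host the number was 36 of 183 (19.7%, 14.2 to 26.2%), among U snRNA genes 59 of 99 (59.6%, 49.3 to 69.3%) and among SL2 spliced leader genes 17 of 18 (94.4%, 72.7 to 99.9%). In the long lists the shares of the unhosted and hosted genes lay close together. The pooled list had a region at 99 of 163 unhosted genes (60.7%, 52.8 to 68.3%) and at 112 of 183 hosted genes (61.2%, 53.7 to 68.3%), against 34.4% of all genes. Replicate 1 had a region at 103 unhosted genes (63.2%, 32.9% of all genes) and replicate 2 at 91 (55.8%, 30.5% of all genes). These intervals cover counting error over genes only, neighbouring genes are not independent, and the differences between classes were not tested.

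**Figure D1:**
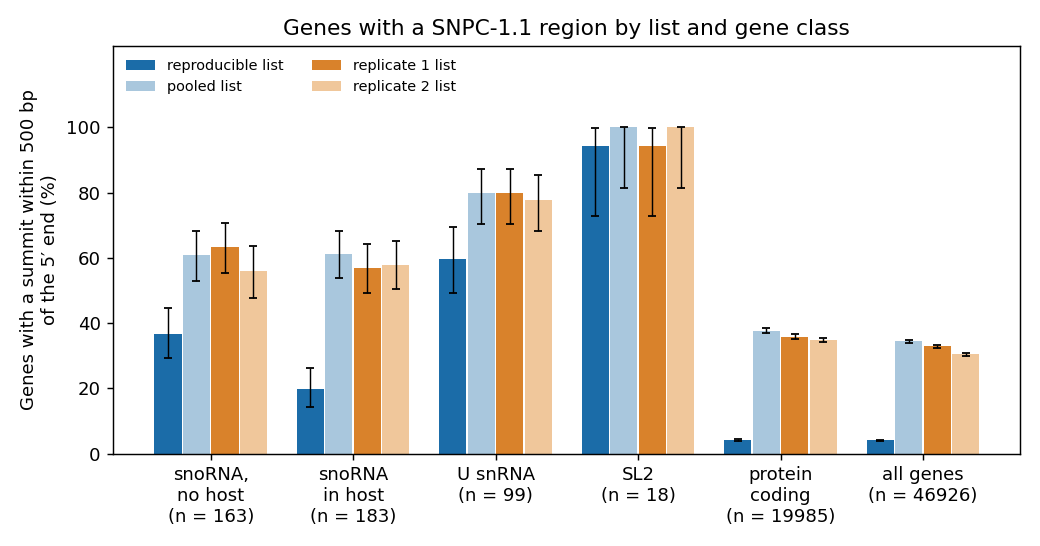
Share of genes with a region summit within 500 bp of the 5′ end (y axis, percent) in each of the 4 lists (colours) for 6 gene classes (x axis), with exact 95% binomial intervals as error bars. In the reproducible list the unhosted snoRNA genes stand at 36.8% and the hosted ones at 19.7%, while in the pooled list they stand at 60.7% and 61.2%.

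Some peaks of unhosted snoRNA genes were among the highest of the reproducible list, and the median rank of the 60 was 234 of 1500. They accounted for 8 of the 25 highest peaks, 20 of the 100 highest and 46 of the 500 highest. The median signal of the 60 was 183, with quartiles of 110 and 805 and a range of 70.9 to 2984. Hosted snoRNA genes with a peak had a median of 109 (n = 36), U snRNA genes a median of 364 (n = 59) and SL2 genes a median of 1045 (n = 17). The 60 genes rested on 59 summits, because C27H5.9 and C27H5.10 share one.

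At the top stood Y53F4B.47 on chromosome II, with a signal of 2984 in the reproducible list, 1310 in replicate 1 and 1779 in replicate 2. Its summit lay 70 bp upstream, and the start of cmtr-1, a cap methyltransferase gene, was also within 500 bp. Y55F3BR.9, a box C/D gene inside an antisense gene on chromosome IV, followed with 2300, 1038 and 1292 in the same lists. The highest peak on chromosome I, at the box C/D gene Y74C9A.6, had 2096, 872 and 1220. All 3 were among the 13 highest peaks of each list, so neither replicate stood apart for them.

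C07A9.14, antisense to the exchanger gene ncx-7 on chromosome III, had signals of 1885, 864 and 1092 in the reproducible, replicate 1 and replicate 2 lists. C16D9.10 on chromosome V had 1796, 810 and 1009, and smy-3 on the same chromosome had 1729, 788 and 952. These ranked 18, 20 and 22 in the reproducible list, with summits 23, 34 and 33 bp upstream. T26A8.6 and T08B6.64, a related pair on chromosome IV, had 1614 and 1239 in the reproducible list, 695 and 480 in replicate 1 and 964 and 776 in replicate 2. The box C/D gene C18A3.12 on chromosome II had 1215, 519 and 728, with its summit 34 bp upstream.

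The rest of the 20 highest were F47G4.9, F59C6.15, M03D4.78, C05H8.3, F25H2.15, Y67A10A.14, K02C4.7, T21F2.3, W03B1.17, F43A11.8 and K07C10.2, with signals from 577 at F43A11.8 to 2034 at K07C10.2. On the X chromosome the highest was T21F2.3, with 686 in the reproducible list, 350 in replicate 1 and 340 in replicate 2. It ranked 65 in replicate 1 and 90 in replicate 2. All 20 lay among the 90 highest reproducible peaks.

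Both replicates held all of these genes. Every gene of the 60 had a region in both replicates, and 56 were among the 1500 highest regions of each. The reproducible list was chosen for agreement between the replicates, so this follows in part from that choice. Over the 83 genes with a region in both, the Spearman rank correlation of signals was 0.948. It describes genes within 1 pair of replicates that share a protocol, and genes are not independent replicates. The 83 include the 60 that were chosen for such agreement. The summits of both replicates lay within 20 bp of each other at 40 of the 60. Among the 60 genes with a reproducible peak, the largest rank gap in one direction was at K02C4.8, which ranked 4266 in replicate 1 (signal 15.6) and 689 in replicate 2 (57.1). In the other direction, among the same 60, it was at W01C9.6, ranked 309 in replicate 1 (59.6) and 1581 in replicate 2 (37.3). Both genes were in the weaker part of the set, with reproducible signals of 74.4 and 102.

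**Figure D2:**
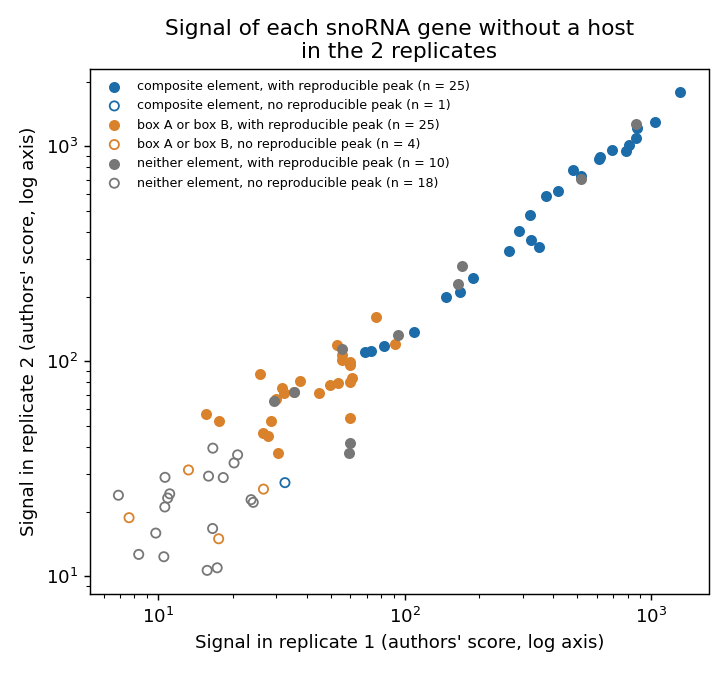
Signal in replicate 1 (x axis, log scale) against signal in replicate 2 (y axis, log scale) for the 83 unhosted snoRNA genes with a region in both replicates, coloured by upstream element; filled points have a reproducible peak. Filled points run from the lower middle to 1310 and 1779 at the top right, with the composite group at the upper end and the box A or box B group below it.

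The composite element was found upstream of 25 of the 60 genes with a peak (41.7%, 29.1 to 55.1%) and of 2 of the 103 without one (1.94%, 0.236 to 6.84%). Read the other way, 25 of the 27 genes with the element had a peak (92.6%, 75.7 to 99.1%). The element occurred upstream of 0.394% of all genes and 0.150% of protein-coding genes, and of 47 of 99 U snRNA genes and 10 of 18 SL2 genes. Its letters started from U snRNA genes and were extended after reading the upstream sequences of those genes and of the unhosted snoRNA genes. The count at U snRNA genes is therefore not independent of that choice. Likewise, the contrast with the genes without a peak describes how the letters were chosen as well as where the element lies. It was given no test. The word CGGAACCC alone, searched on both strands, was upstream of 13 of the 60 genes and of 2 of the 103, against 0.166% of all genes.

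Genes with the composite element had the strongest peaks. Their median signal was 890 (n = 25, range 140 to 2984), and 18 of the 20 highest unhosted snoRNA genes carried the element. The exceptions among the 20 were K07C10.2 and M03D4.78. The first base of the element lay 57 to 80 bp upstream of the gene, with a median of 63 bp. At U snRNA genes with a peak, a class read in choosing the letters, the median was 61 bp upstream (n = 39). The summit was a median of 23 bp downstream of that first base, and the summits of both replicates were within 20 bp of each other at 22 of the 25.

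Box A or box B was found at another 25 of the 60 genes with a peak (41.7%, 29.1 to 55.1%), none of which had a composite element. With no mismatch allowed, the share was 21.7% of genes with a peak and 3.88% of those without. Among the 103 genes without a peak there were 9 (8.74%, 4.07 to 15.9%). The share was 2.14% of protein-coding genes, 3.27% of all genes and 12.9% of all genes with a reproducible peak. Of the 34 genes with a box and no composite element, 25 had a peak (73.5%, 55.6 to 87.1%). Both boxes matched at 8 of the 25, box A alone at 6 and box B alone at 11. The same letters, searched inside the annotated spans of nuclear tRNA genes, matched box A at 336 of 612 and box B at 539 of 612 (any place in the span). No U snRNA gene with a peak matched either box, whereas 15 of 18 SL2 genes matched box B in the same window. At the 7 SL2 genes with a peak, box B and no composite element, the match began at the first base of the gene itself, not ahead of it. As with the composite element, the choice of letters on these sequences means that the contrast was given no test.

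At the genes with a peak, box A began 52 to 68 bp upstream of the gene (median 57.5 bp, n = 14) and box B 6 to 28 bp upstream (median 14 bp, n = 19). Some genes without a peak reached farther: box A began up to 92 bp upstream, at K04D7.17, and box B up to 57 bp upstream, at C26B2.14. At others every matched box lay inside the ranges of genes with a peak. These were H04D03.5 (box A 59 bp, box B 16 bp), Y59E1B.14 (56 and 13 bp), and K09E9.5, T27A8.9 and ZC395.12 (box B 6, 12 and 13 bp). Of these, Y59E1B.14, T27A8.9 and ZC395.12 had no region in any list, whereas H04D03.5 and K09E9.5 had one in the pooled list and in each replicate. At T27A8.9 the share of short words around the gene start that occur once in the genome was only 0.147. Reads from repeated sequence could be lost there, and the part of this in its missing region was not tested. Of the 25 genes with a box and a peak, 19 were under 100 bases, against 9 of the 25 with a composite element. A run of 4 T within the last 5 annotated bases or the next 20 bp, the kind of signal at which RNA polymerase III ends a transcript, was present at 24 of these 25 genes. It was present at 13 of the 25 genes with a composite element, 5 of the 10 with a peak and neither arrangement, 32 of the 92 with neither a peak nor an arrangement and 603 of 612 nuclear tRNA genes. Among genes with a box and no peak it was present at 7 of 9, and among U snRNA genes with a peak at 14 of 59. These counts were not tested against each other.

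**Figure D3:**
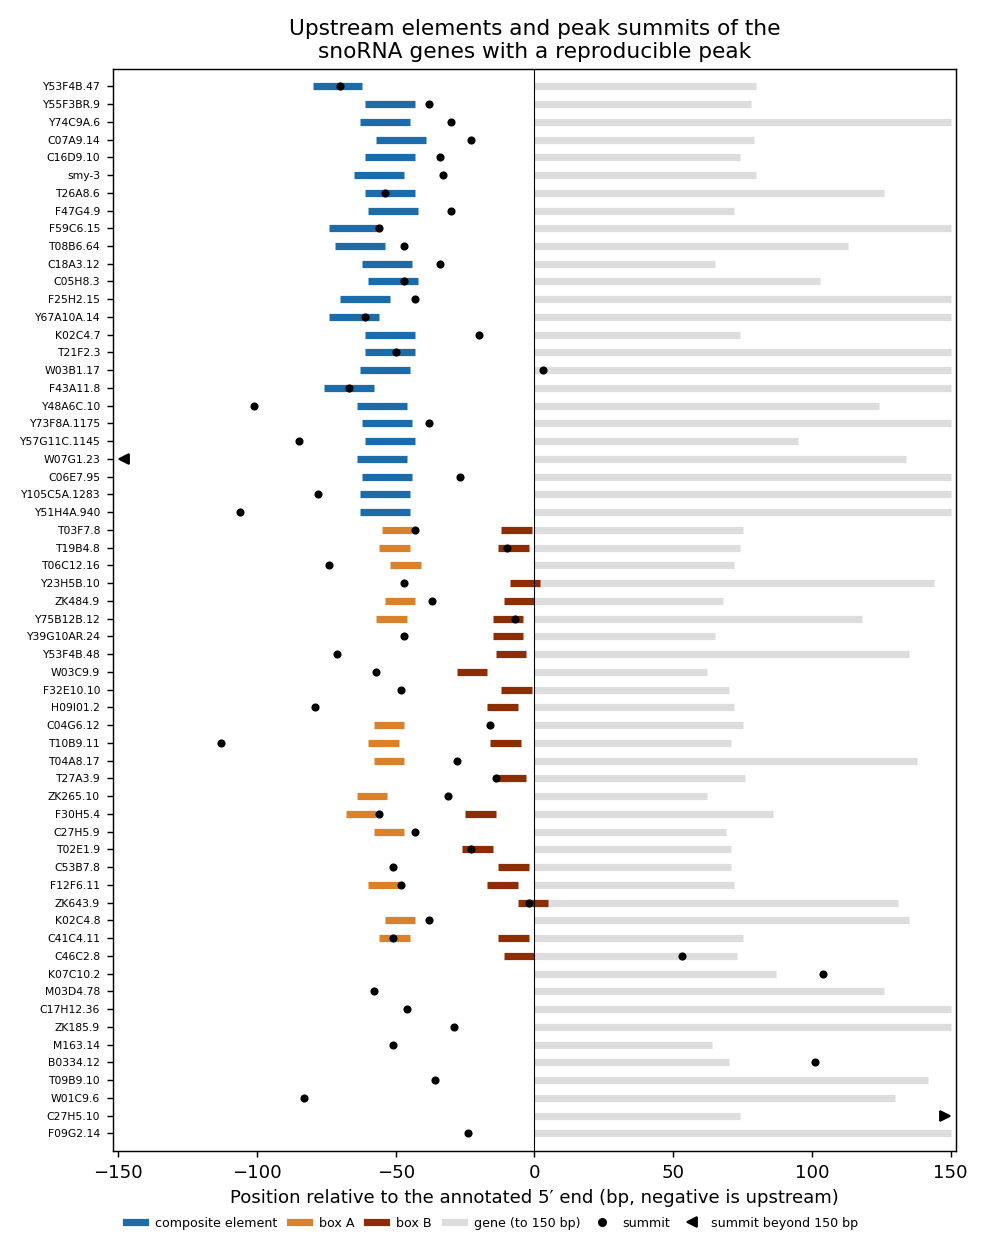
Map of the 60 unhosted snoRNA genes with a reproducible peak (rows, ordered within each group by signal), with positions in bp relative to the annotated 5′ end on the x axis; coloured bars are the elements, grey bars the genes and black points the summits. Composite elements form a column at a median of 63 bp upstream, box A one at 57.5 bp and box B one at 14 bp, and the median summit over all 60 genes lies 43 bp upstream; in the group with neither, 6 of 10 summits lie 20 to 80 bp upstream and 3 lie past the gene.

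Signals at the boxes were lower and in a narrow range. The 25 genes had a median signal of 113 (range 70.9 to 239). None was among the 100 highest peaks, against 18 of the 25 with a composite element. The lowest signal in the reproducible list is 58.8, which limits the low end of this range. In the pooled list the 29 box genes with a region ran from 26.2 to 239, and the 27 composite genes from 16.0 to 2984. T03F7.8 on chromosome V, antisense to cutl-18, was the highest with 239 in the reproducible list, 76.4 in replicate 1 and 161 in replicate 2. T19B4.8 on chromosome I had 198, 91.1 and 121. Y75B12B.12, one of the genes printed above with both boxes, had 150, 55.7 and 102. The ranges of the box group (70.9 to 239) and the composite group (140 to 2984) thus overlapped between 140 and 239. Summits of both replicates lay within 20 bp of each other at 11 of the 25. The authors' signal was the only readout, so how it relates to occupancy at these 2 groups was not tested.

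**Figure D4:**
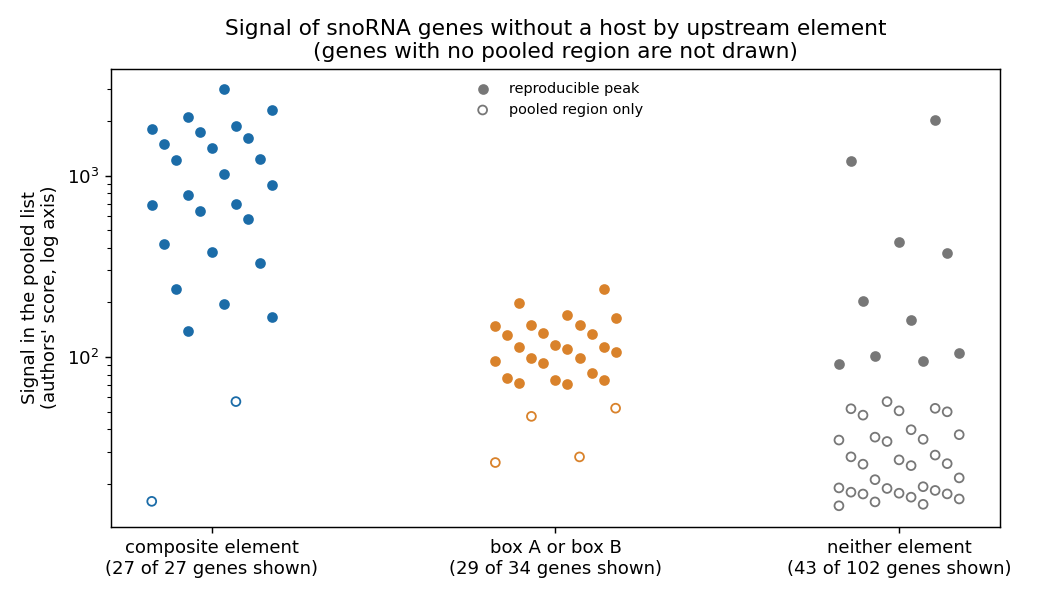
Signal in the pooled list (y axis, log scale) of the unhosted snoRNA genes by upstream element (x axis); filled points have a reproducible peak and open points a pooled region only. Filled points span 140 to 2984 in the composite group, 70.9 to 239 in the box A or box B group and 91.1 to 2034 in the group with neither.

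The same letters were found at hosted snoRNA genes. The composite element was upstream of 12 of the 183 hosted genes and of 27 of the 163 unhosted ones, and 11 of the 12 had a peak, with a median signal of 1865. Box A or box B without a composite element was found at 26 hosted genes, of which 13 had a peak, with a median of 92.8. With neither arrangement, 12 of 145 hosted genes (8.28%, 4.35 to 14.0%) and 10 of 102 unhosted genes (9.80%, 4.80 to 17.3%) had a peak. These shares were not tested against each other.

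Summits lay upstream of the gene at 55 of the 60 (91.7%, 81.6 to 97.2%), inside it at 2 and beyond its 3′ end at 3. The median summit was 43 bp upstream (quartiles 56.25 and 27.75 bp upstream), 44 of the 60 were 20 to 80 bp upstream and 53 were within 100 bp of the 5′ end. The gene with the summit farthest upstream was W07G1.23, at 257 bp. For 12 of the 60 genes a protein-coding start was also within 500 bp of the summit, for 19 another noncoding RNA start and for 6 a piRNA start. No tRNA, U snRNA, SL2 or hosted snoRNA start was within that distance of any of them. For 2 genes, K07C10.2 and C27H5.10, another start lay closer to the summit than their own, with piRNA starts left out of this count.

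K07C10.2, the exception with the highest signal, had 2034 in the reproducible list, 868 in replicate 1 and 1264 in replicate 2, at ranks 14, 14 and 11. Its summit lay 104 bp downstream of its 5′ end, past the gene, and the 100 bp upstream held no arrangement. The noncoding gene K07C10.6 overlaps it on the other strand (chrII:11167189-11167304), and the same summit lay 17 bp upstream of that gene. On its own strand K07C10.2 lies inside the noncoding genes K07C10.3 and K07C10.8, and it was the 1 gene with a peak among the 7 in such a place. The 100 bp upstream of K07C10.6 (chrII:11167305-11167404 on the minus strand) hold the closest match to the composite element with 2 mismatches, 1 more than the search allowed, starting 59 bp upstream. It is printed with the matched positions in capitals. This gene is annotated as ncRNA and was chosen after its values were seen.
K07C10.6: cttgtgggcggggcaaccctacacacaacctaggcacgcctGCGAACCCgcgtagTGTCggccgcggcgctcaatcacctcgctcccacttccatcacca

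B0334.12, antisense to twk-5 on chromosome II, also had its summit past the gene, 101 bp downstream of its 5′ end, with signals of 160, 55.8 and 114 in the reproducible, replicate 1 and replicate 2 lists. Read from the other strand, an exact box A began 62 bp beyond its annotated 3′ end. The line gives that strand (chrII:11484733-11484852 on the minus strand), from 100 bp beyond the 3′ end to 20 bp inside the gene, with box A in capitals. Over all genes with a peak, 1 of 60 had an element in this place on the other strand, against 5 of 103 without a peak. Which strand is transcribed was not measured.
B0334.12: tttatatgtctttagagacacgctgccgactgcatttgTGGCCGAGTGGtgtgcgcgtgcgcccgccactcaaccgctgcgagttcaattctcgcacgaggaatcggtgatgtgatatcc

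M03D4.78 and C17H12.36, a pair on chromosome IV with neither arrangement, had the next highest signals of the 10 such genes. M03D4.78 had 1197 in the reproducible list, 517 in replicate 1 and 703 in replicate 2, and C17H12.36 had 432, 171 and 278. Their summits lay 58 and 46 bp upstream. The 100 bp upstream of each (chrIV:6117877-6117976 on the minus strand, and chrIV:6792874-6792973 on the plus strand) are printed without capitals, since nothing matched, so that their shared letters can be compared. The other 7 genes with neither arrangement were ZK185.9, M163.14, T09B9.10, W01C9.6, C27H5.10, F09G2.14 and B0334.12, with signals from 91.1 at F09G2.14 to 375 at ZK185.9.
M03D4.78: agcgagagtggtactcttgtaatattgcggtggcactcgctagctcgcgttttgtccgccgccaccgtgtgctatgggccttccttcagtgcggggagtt
C17H12.36: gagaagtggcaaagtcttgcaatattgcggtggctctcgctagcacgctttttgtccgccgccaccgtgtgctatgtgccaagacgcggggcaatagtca

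Both genes with a composite element and no reproducible peak had a region in the pooled list. W05B2.9, antisense to dhc-4 on chromosome III, had a pooled signal of 56.9, with 32.6 in replicate 1 and 27.3 in replicate 2. K02F6.11 on chromosome II had a pooled signal of 16.0 and no region in either replicate. The share of 36-base words within 150 bp of the 5′ end that occur once in the genome was 0.492 at K02F6.11 and 1 at W05B2.9. Reads from repeated sequence could be lost or divided, and the part of this in the low value was not tested. Both windows (chrIII:10976747-10976846 on the minus strand for W05B2.9, and chrII:2556799-2556898 on the minus strand for K02F6.11) held both parts of the element. In W05B2.9 it began 88 bp upstream, outside the range of 57 to 80 bp seen at genes with a peak.
W05B2.9: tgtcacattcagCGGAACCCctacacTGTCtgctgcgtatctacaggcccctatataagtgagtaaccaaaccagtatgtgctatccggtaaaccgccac
K02F6.11: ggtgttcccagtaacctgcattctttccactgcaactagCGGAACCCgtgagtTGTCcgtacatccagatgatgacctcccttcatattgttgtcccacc

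Some of the genes are close copies, and the authors' counting could divide reads among them. F59C6.15, Y67A10A.14 and F25H2.15 were 93.8 to 97.1% identical over the gene and had reproducible signals of 1416, 777 and 890. F43A11.8, 84.8 to 87.9% identical to them, had 577. T26A8.6 and T08B6.64 were 85.7% identical. W07G1.23, Y48A6C.10 and a pair of genes on chromosome IV shared 81 to 86% of the 100 bp upstream, and had signals of 236, 418, 140 and 166. Their summits lay 257, 101, 106 and 78 bp upstream, all farther from the gene than the first base of the element. At these 4 genes 54.5 to 70.7% of 36-base words within 150 bp of the 5′ end occurred once in the genome, so their values are uncertain. C53B7.8 and C46C2.8, 94.5% identical, had 81.4 and 70.9. K09E9.5 had no reproducible peak, whereas its 94.7% identical copy ZK643.9 had one with a signal of 74.7. In all, 47 of the 60 genes with a peak and 92 of the 103 without had unique sequence, at least 0.9 of these words occurring once. Among genes with a peak it was 13 of the 25 with a composite element and 24 of the 25 with box A or box B, and the part of repeated sequence in the signals was not tested.

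The lowest genes inside the reproducible list were C46C2.8 (70.9), C41C4.11 (71.7) and K02C4.8 (74.4). The highest outside it, by their pooled signal, were W05B2.9 (56.9), F37F2.4 (56.8) and K09E9.5 (52.3). At the edge of the window, C27H5.10 and W07G1.23 were inside with summits 371 and 257 bp from the 5′ end, and T07D4.7 and M7.15 were outside with the nearest reproducible summit at 520 and 743 bp. Of the 103 genes without a reproducible peak, 39 had a region in the pooled list (34.4% of all genes had one). A region in both replicates was found at 23, and 48 had none in any list. Replicate 1 had a region at 32.9% of all genes and replicate 2 at 30.5%. No share of all genes is given for a region in both replicates or in no list, so these counts have no background beside them. Most of the 48 (40) had unique sequence. T13E5.1, Y71G12B.41, T09B4.22, R10A10.3 and R11A5.8, the first in genome order with unique sequence and no pooled region, all lie on chromosome I and had no region in either replicate.

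Peaks were found at 43 of 124 unhosted snoRNA genes between coding genes (34.7%, 26.4 to 43.7%) and at 14 of 33 inside a coding gene on the other strand (42.4%, 25.5 to 60.8%). Of the 45 genes under 100 bases, 32 had a peak (71.1%, 55.7 to 83.6%), and of the 118 longer ones 28 (23.7%, 16.4 to 32.4%). The median length was 86.5 bases with a peak and 153 without. By chromosome the share ran from 4 of 23 on X (17.4%) to 17 of 31 on IV (54.8%). The letters of boxes C and D at the ends were found in 8 of the 163 genes, 6 of them with a peak, and ACA within the last 6 bases, as in H/ACA snoRNAs, in 20 others, 8 of them with a peak. So short a word as ACA can occur by chance, and its share at other genes is not given. The other 135 genes matched neither, and 46 of them had a peak. None of the 6 box C/D genes with a peak was without an upstream arrangement (4 composite, 2 box A or box B). None of these differences was tested.

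Genes for proteins of snoRNA particles, snoRNA caps and snoRNA guidance were described from a list of 25 names, of which 14 genes were found. The list is thus wider than the particle proteins themselves. The name gar-1 was left out, because in worms it is an acetylcholine receptor gene, and the homologue of GAR1 was matched through its clone name as garr-1. Reproducible peaks lay at 6 of the 14, against 4.25% of protein-coding genes, and 13 had a pooled region, against 37.7% of protein-coding genes. They were at nol-10, a gene named for a nucleolar protein (135, summit 217 bp upstream), Y48A6B.3, the NHP2 homologue of H/ACA particles (93.3, 322 bp), dkc-1, the pseudouridine synthase (89.7, 257 bp), garr-1 (75.4, 432 bp), ruvb-2, a particle assembly helicase (72.8, 46 bp), and fib-1, fibrillarin, the methyltransferase of C/D particles (67.9, 52 bp). None was as high as the median of 183 at the unhosted snoRNA genes. The list was drawn up with earlier results of these data known, and its share was not tested.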

How the data were processed

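Per the labels, SNPC-1.1 with a GFP-FLAG tag was immunoprecipitated from whole worms, with chromatin broken by sonication, in 2 biological replicates. Per the text files deposited with the lists, the authors called regions from each replicate's alignment, and from both alignments joined, relative to a control, and a subset passed an IDR threshold. The deposited signal value of each region, a score whose scale is not stated, ranked and described regions within a list. No aligner, peak caller or IDR cutoff is named in the labels or those text files. The lists hold no read counts, so depth is unknown and intervals cover counting error only.

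Genes came from Ensembl release 115 (WBcel235, the same coordinates as ce11) and sequences from the matching RefSeq assembly. No region of 87218 ended beyond its chromosome. Summits were the region start plus the deposited offset, and coordinates are 1-based. Shares have exact (Clopper-Pearson) 95% intervals from SciPy 1.17.1 under Python 3.11.15, identities came from edlib 1.3.9.post1 (edit distance over the longer sequence) and plots from Matplotlib 3.10.9. The search for summits and letters was tested on simulated data. A gene was box C/D-like with the letters of box C in its first 20 bases and of box D in its last 20, and H/ACA-like with ACA in its last 6.

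Named genes were the 20 with the highest peaks, the 3 either side of the lowest reproducible signal and the first 5 with unique sequence and no pooled region. Also named were the largest rank gap in each direction and symbols other than clone names. Genes with a peak from the list for snoRNA particles, caps and guidance were named too. Other genes, and the 3 groups by upstream letters, were chosen after their values were seen. The genes and lists were chosen with earlier results of these data known. The lists on ce10 were not used, and no sequence from chromosome I is printed.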

Additional observations from a re-analysis of the deposited data

How the results depend on the processing

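Of 57 alternative values for the main results, 49 stayed inside the 95% interval of the main value. That interval covers counting error over genes, and most alternatives reuse the same genes and peaks. The count is therefore a weak check on the processing. The share of unhosted snoRNA genes with a reproducible peak (36.8%) ran from 33.1% with the 750 highest peaks to 38.7% with a window of 1000 bp, and was 36.2 to 36.8% with the 1500 highest regions of 1 replicate at a time. With 1 replicate left out, the median summit was 37 to 46 bp upstream and the upstream share 85.0 to 88.1%, against 91.7% in the reproducible list. The median signal was 168 to 220, and was not taken from replicate lists, whose scales may differ. Alternatives on the long lists and on the elements were added after seeing the data. In the pooled list the share was 52.8% within 200 bp and 70.6% within 1000 bp, in replicate 1 it was 51.5% and 71.2%, and in replicate 2 it was 66.9% within 1000 bp. With 1 mismatch allowed, the leading word was upstream of 17.2% of the genes instead of 9.20%. Without mismatches, box A or box B was found at 21.7% of genes with a peak and 3.88% of those without. Narrower or wider windows and stricter or looser letters change these shares by construction. No paired analysis was possible because there was 1 group. With 2 replicates, no spread of a signal can be estimated per gene.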
